A study of Homo sapiens with 16 samples.

Results

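Solute carriers are the genes named SLC and a family number. On these arrays 367 of 18132 genes carried such a symbol, after 2 genes that the selection sets aside (from SLC2A1, SLC2A3 and SLC9A2). Each of the 367 was read from 1 probe set, the brightest of those assigned to that gene alone. Of these, 239 reached the 40th percentile of an array (a log2 signal of 4.05 to 4.12) on 4 or more of 16 arrays, 65.1% of the SLC genes, and they are the members described here out of 12495 genes tested. The other 128 were below that level and were not tested. Just inside the limit were SLC2A14, SLC7A10 and SLC19A3, with mean signals of 3.93, 4.00 and 4.04, and just outside were SLC6A11, SLC22A20P and SLC1A7, with 4.02, 3.99 and 3.97. None of the 239 was kept through the PMA arrays alone or through the arrays without PMA alone. Of the 367, 9 are not carriers (antisense RNAs, pseudogenes and proteins named after a neighbouring, bound or regulated carrier), and 6 of these were kept.

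HEK293 is a human embryonic kidney cell line. Every culture carried an expression plasmid of MR, the mineralocorticoid receptor encoded by NR3C2 (500 ng per well, 24 h), and was treated for 4 h. The groups were DOC plus PMA, PMA (phorbol 12-myristate 13-acetate, a protein kinase C activator, 10 nM), DOC (deoxycorticosterone, a mineralocorticoid, 100 nM) and vehicle, with 4 arrays each that the labels number as biological replicates. The plasmid is common to the groups used, so the part of the receptor in a response was not tested. Arrays of one group correlated at 0.991 to 0.997. Of the listed HEK293 markers VIM was at signals of 12.5 to 12.9 and CDH2 at 10.2 to 10.7, and the rest of that list is not described here. The defining leukocyte gene PTPRC was at 1.95 to 2.45, below the filter. Of 5 leukocyte, 5 endothelial, 5 fibroblast and 4 tubule markers on the array 2, 3, 3 and 2 were kept. Of these CD68, CORO1A, PECAM1 and TIE1, with signals of 3.82 to 5.14, rose with PMA by 0.30 to 0.47, and their part in the carrier results was not tested. The line is a proliferating culture and not a kidney tubule: of 12 carriers that mark segments of the adult nephron, 10 were below the filter, among them SLC12A1 and SLC12A3, the targets of loop and thiazide diuretics. SLC34A1 and SLC22A8 were kept with mean signals of 4.25 and 4.88, and their differences between PMA and vehicle were 0.01 and 0.00 on the log2 scale (adjusted p = 0.929 and 0.975).

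Solute carriers are membrane proteins that move small molecules either down their gradient, in exchange for another solute, or together with an ion whose gradient drives them. Families are numbered by sequence and mostly share a kind of substrate, so that the SLC7 proteins carry amino acids, the SLC35 proteins bring nucleotide sugars into the Golgi, the SLC25 proteins cross the inner mitochondrial membrane and the SLC39 and SLC30 proteins carry zinc towards and away from the cytosol. In kidney epithelium, mineralocorticoids act on sodium transport largely through the kinase SGK1, which alters transporters and channels as proteins as well as transcripts. Transcript levels on an array say nothing of how much protein is in a membrane or how active it is.

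PMA against vehicle addressed what the phorbol ester did to carrier transcripts without added steroid. Of the 239 members, 39 rose and 67 fell (adjusted p under 0.05 by limma over all genes tested). That is 44.4% of the members, and of all genes tested 47% passed, 17.7% higher and 29.3% lower, so that the share among carriers was close to the background. The median difference was −0.02 over the members and −0.04 over all genes. Most changes were small: 66 of the 106 members that passed were under 0.5 on the log2 scale. By the brightest probe set, 1 member was at least 2-fold higher and 3 were at least 2-fold lower. In such bulk cultures a change in RNA per cell and a change in which cells are present cannot be told apart. The 4 PMA arrays all lay above the 4 vehicle arrays for 28 members and all below them for 61, together 37.2% of the members and 42.2% of all genes.

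The largest rise was that of SLC35G2, which belongs to the nucleotide sugar transporter family by sequence. Its log2 signals were 9.062, 9.005, 9.003 and 9.034 in PMA cells, against 7.53, 7.16, 7.43 and 7.42 in vehicle cells. The difference was 1.64 ± 0.08 (SE, n = 4 per group, adjusted p = 1.99e-11), which is 3.12-fold, and the other probe set of the gene gave 1.61. SLC7A1, the CAT-1 carrier for arginine and lysine, had 9.21, 9.12, 9.23 and 9.27 with PMA, against 8.28, 8.11, 8.25 and 8.21 with vehicle, and rose by 1.00 ± 0.08 (adjusted p = 1.12e-08). The groups of both genes were far apart compared with the spread within each. The 3 kept probe sets of SLC7A1 ranged from 1.00 to 1.58.

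SLC40A1 had the largest fall. It encodes ferroportin, through which cells export iron. Its signals were 4.67, 4.29, 4.33 and 4.23 with PMA, against 6.04, 6.02, 6.23 and 6.23 with vehicle. The difference was −1.75 ± 0.11 (adjusted p = 5.27e-10), and its other probe set gave −1.23. The PMA signals of ferroportin lay just above the 40th percentile level, where a fall on an array can be understated. SLC16A14, a monocarboxylate carrier relative of unassigned substrate, had 6.47, 6.56, 6.64 and 6.44 with PMA, against 7.74, 7.85, 7.71 and 7.94 with vehicle (−1.28 ± 0.07, adjusted p = 2.06e-10). SLC24A1, the potassium-dependent sodium-calcium exchanger first known from rod photoreceptors, had 4.41, 5.20, 4.70 and 4.81 with PMA, against 5.97, 6.06, 5.92 and 6.30 with vehicle (−1.28 ± 0.14, adjusted p = 9.39e-07). No PMA array reached a vehicle array for any of these 3 genes. The other kept probe sets of SLC16A14 and SLC24A1 gave smaller falls, of −0.69 and −0.56, which are under 2-fold.

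**Figure D1:**
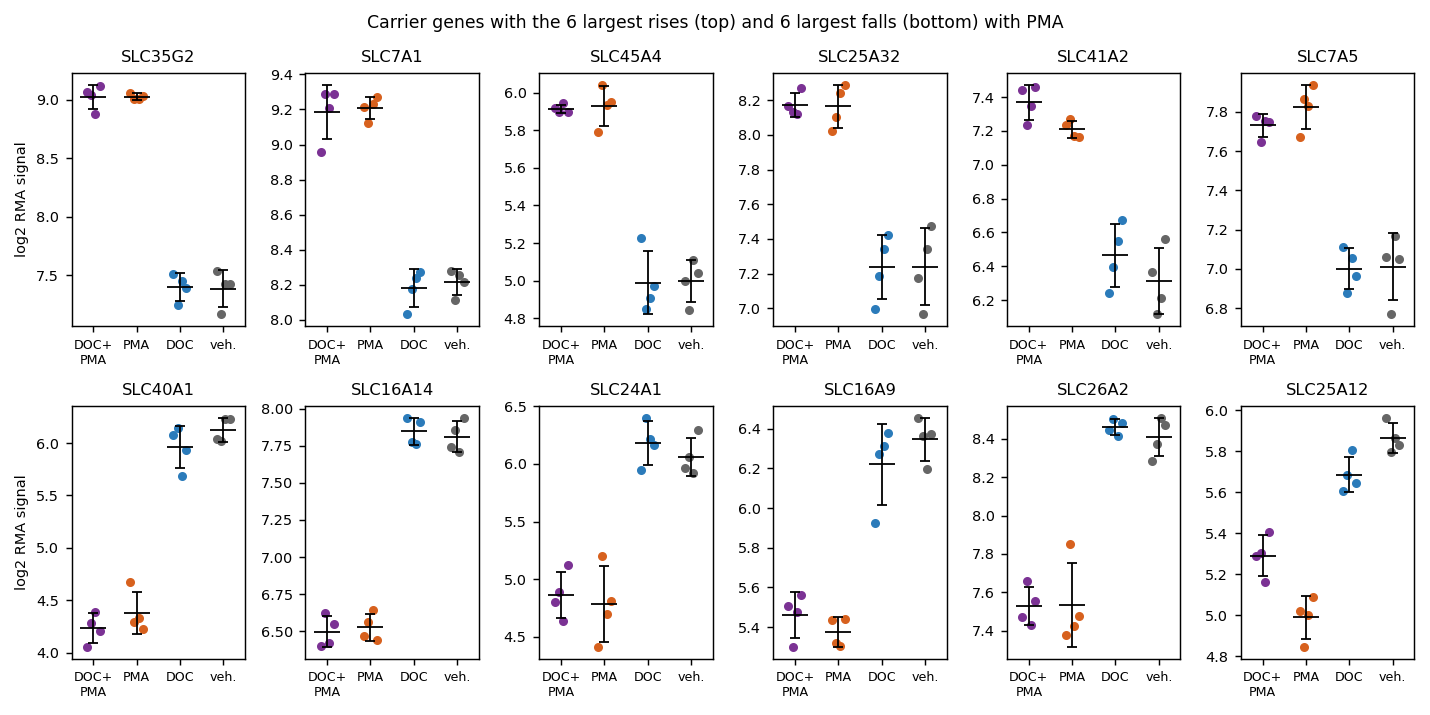
Log2 RMA signal (y axis) of the 6 carrier genes with the largest rises with PMA (top row) and of 6 with the largest falls (bottom row), by treatment group (x axis, DOC+PMA, PMA, DOC and veh. for vehicle). Each point is 1 array and each bar is the mean ± SD of 4 arrays; the y axes differ between genes and do not start at 0. In every panel the DOC plus PMA and PMA arrays lie on one side and the DOC and vehicle arrays on the other, and in SLC25A12 the DOC plus PMA arrays (5.16 to 5.41) lie above the PMA arrays (4.84 to 5.09).

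The 300 bases around the annotated start are printed for 4 of these genes, because they stand for the largest rise, the largest fall and 2 risers whose promoters held a searched motif. They run 5′ to 3′ on the gene's strand, 250 bases before the start to 50 after it, from RefSeq on GRCh38.p14. The build is that of the sequence table, since the deposited values carry no coordinates. Capitals mark a motif.
SLC35G2 (chr3:136818876-136819175, plus strand): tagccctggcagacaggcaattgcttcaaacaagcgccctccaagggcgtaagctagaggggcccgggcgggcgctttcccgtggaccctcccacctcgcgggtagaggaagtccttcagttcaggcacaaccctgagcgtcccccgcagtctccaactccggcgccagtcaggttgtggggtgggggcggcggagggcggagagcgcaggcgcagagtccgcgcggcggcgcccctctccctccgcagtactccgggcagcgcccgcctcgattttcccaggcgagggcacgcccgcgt
SLC40A1 (chr2:189580737-189581036, minus strand): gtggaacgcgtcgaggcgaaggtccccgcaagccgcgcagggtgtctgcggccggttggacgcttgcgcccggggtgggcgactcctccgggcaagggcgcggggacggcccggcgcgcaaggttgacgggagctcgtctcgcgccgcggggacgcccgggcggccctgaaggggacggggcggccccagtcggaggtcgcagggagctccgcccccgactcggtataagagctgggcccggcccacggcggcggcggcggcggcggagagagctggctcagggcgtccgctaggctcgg
SLC25A25 (chr9:128098257-128098556, plus strand): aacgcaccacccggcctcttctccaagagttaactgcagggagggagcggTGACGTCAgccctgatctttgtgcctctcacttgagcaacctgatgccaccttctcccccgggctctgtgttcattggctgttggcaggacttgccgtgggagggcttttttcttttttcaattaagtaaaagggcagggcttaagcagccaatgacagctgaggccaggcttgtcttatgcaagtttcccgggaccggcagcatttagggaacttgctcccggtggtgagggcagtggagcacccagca
SLC1A3 (chr5:36596338-36596637, plus strand): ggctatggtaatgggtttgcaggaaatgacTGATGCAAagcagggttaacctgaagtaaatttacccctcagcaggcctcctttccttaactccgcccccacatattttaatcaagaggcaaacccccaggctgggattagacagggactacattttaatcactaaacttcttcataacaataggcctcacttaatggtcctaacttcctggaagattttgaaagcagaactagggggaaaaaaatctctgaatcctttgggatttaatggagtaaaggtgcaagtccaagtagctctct
A promoter of this kind was at hand for 197 of the 239 members and for 10257 of the genes tested. The motifs searched on both strands were the AP-1 site TGANTCA, the cyclic AMP response element TGACGTCA, the core TGATGCAA of the amino acid response element bound by ATF4, the corticosteroid receptor half-site TGTTCT and the EGR1 site GCGTGGGCG. The promoter of SLC25A25 held the cyclic AMP response element 200 bases before its start, and that of SLC1A3 held the amino acid response core 220 bases before. SLC35G2 and SLC40A1 held none of these letters in this window. Over the lists the AP-1 letters stood in 1 of 30 promoters of members that rose (SLC6A17) and 4 of 58 of members that fell, against 4.50% of all promoters. The cyclic AMP element stood in 2 of the 30 (SLC25A25 and SLC35F5) and 0 of the 58, against 3.32% of all. The EGR1 letters stood in 0 of the 30 and 3 of the 58 (SLC11A2, SLC39A3 and SLC9A3-AS1), against 1.34% of all. The amino acid core stood in 1 of the 30 and 0 of the 58, against 0.536% of all. A match is a description of the letters and not a bound site.

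Transport classes were assigned by family number, so that a class can hold members of other or unassigned substrates. Amino acid carriers made the largest class. Of 64 on the array 40 were kept, 13 rose, 8 fell and the median difference was 0.11 (15 and 7 after cyclic loess, 19 and 7 with a common array median). A common array median means, here and below, that the arrays were shifted to the same median over the genes tested. The SLC7 family had 9 kept carriers, of which 5 rose and 1 fell (median 0.25). Beside SLC7A1, SLC7A5, the light chain of the LAT1 exchanger for large neutral amino acids, had 7.67, 7.87, 7.83 and 7.94 with PMA, against 7.06, 6.77, 7.17 and 7.05 with vehicle, and rose by 0.81 ± 0.08 (adjusted p = 3.58e-07). Its PMA and vehicle arrays did not overlap, and with its 2 probe sets (0.25 and 0.81) averaged the difference was 0.53. Its heavy chain partner SLC3A2 was at 0.04, which did not pass. SLC7A11, the xCT cystine-glutamate exchanger that feeds glutathione synthesis, rose by 0.55 ± 0.14 (adjusted p = 0.00424), but its groups overlapped: PMA arrays were at 7.44, 8.03, 7.57 and 7.74, against 7.04, 6.87, 7.49 and 7.21 with vehicle. SLC7A9, the cystine carrier of the renal and intestinal brush border, rose by 0.67 ± 0.16 (adjusted p = 0.00232), with signals of 5.08 to 5.34 in PMA cells and 4.20 to 4.81 in vehicle cells.

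One arginine carrier of the same family moved the other way. SLC7A2, the CAT-2 carrier, had 6.30, 6.67, 6.57 and 6.57 with PMA, against 7.27, 7.18, 7.34 and 7.45 with vehicle, and fell by 0.78 on the log2 scale (SE 0.08, adjusted p = 3.66e-07). CAT-1 and CAT-2, which carry the same cationic amino acids, thus changed in opposite directions, each with no overlap of the PMA and vehicle arrays. In the SLC6 family of sodium- and chloride-coupled carriers 5 of 11 kept members rose and 1 fell (median 0.20). Without vehicle replicate 2, 3 or 4 the rises were 3, and without PMA replicate 3 or 4 they were 2, while the fall, that of SLC6A15, was lost under either rescaling. SLC6A8, which takes up creatine, had 9.01, 9.19, 8.88 and 9.07 with PMA, against 8.42, 8.36, 8.38 and 8.35 with vehicle (0.66 ± 0.07, adjusted p = 3.19e-07). SLC1A3, a glutamate transporter of the EAAT type whose promoter held the amino acid response core, rose by 0.49 ± 0.09 (adjusted p = 0.000327).

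The SLC38 family of glutamine and neutral amino acid carriers had 0 rises and 3 falls among 8 kept members (1 and 3 with a common array median). Further members named in this and the next paragraphs lie outside the naming rule and were chosen after their values were seen. The glutamate carrier SLC1A1 was at −0.68 and the lysosomal carrier SLC38A7 at −0.51, and both passed. A list of 19 genes of the ATF4 amino acid response, apart from carriers, had 18 kept. In PMA against vehicle it had 6 rises and 4 falls and a median of 0.14, where 17.7% of all genes tested rose and 29.3% fell. The list's transcription factor ATF4 rose by 0.36 and the stress protein SESN2 by 0.48, and VLDLR at −1.49 and DDIT4 at −1.20 passed on the lower side.

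Carriers of zinc and other metals had 5 rises and 11 falls among 27 kept of 32, with a median of −0.18. Without vehicle replicate 1 or 4 or PMA replicate 4 the rises were 3. The count of falls depended on the scaling: after cyclic loess it was 6 rises and 8 falls (median −0.12), and with a common array median 7 rises and 6 falls (median −0.10). Besides ferroportin, SLC30A6, a zinc carrier of the secretory pathway, had 7.27, 7.45, 7.39 and 7.64 with PMA, against 8.21, 7.99, 8.22 and 8.30 with vehicle (−0.74 ± 0.08, adjusted p = 9.39e-07). Its 4 kept probe sets did not all move the same way, and ranged from −0.74 to 0.03. SLC39A11, a zinc carrier of the ZIP family, had 5.63 to 5.93 with PMA, against 6.43 to 6.65 with vehicle (−0.73 ± 0.10, adjusted p = 9.48e-06), but its 3 kept probe sets ranged from −0.73 to −0.02, and averaged they gave −0.30. The divalent metal importer SLC11A2, which with ferroportin forms the route of iron across the gut epithelium, was at −0.62 and passed. The magnesium carrier SLC41A2 was the exception in size on the upper side: it had 7.23, 7.27, 7.17 and 7.16 with PMA, against 6.37, 6.12, 6.21 and 6.56 with vehicle, and rose by 0.89 ± 0.10 (adjusted p = 7.49e-07). Its groups did not overlap.

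Nucleotide sugar carriers supply the Golgi and endoplasmic reticulum with activated sugars for glycosylation. Of 29 on the array 25 were kept, 5 rose and 10 fell (median −0.09), and the falls were 7 after either rescaling. SLC35A5 had 7.11, 7.15, 7.03 and 7.10 with PMA, against 7.91, 7.89, 7.94 and 8.06 with vehicle (−0.85 ± 0.07, adjusted p = 1.17e-08), with no overlap. SLC35B4, a carrier of UDP-xylose and UDP-N-acetylglucosamine, was at −0.70 and SLC35A1, the CMP-sialic acid carrier, at −0.55, and both passed. SLC35D1, a carrier of UDP-glucuronic acid, rose by 0.43. Besides SLC35G2, no member of the family rose by more than that.

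Mitochondrial carriers of the SLC25 family had 3 rises and 12 falls among 39 kept of 46, with a median of −0.02. The median was 0.02 after cyclic loess and 0.07 with a common array median, and the falls were 12 and 10, so that the direction of the family as a whole depended on the scaling. SLC25A32, which brings folate and FAD into mitochondria, had 8.02, 8.10, 8.24 and 8.29 with PMA, against 7.17, 6.97, 7.34 and 7.48 with vehicle, and rose by 0.92 ± 0.11 (adjusted p = 1.22e-06). SLC25A25, the calcium-regulated carrier that exchanges ATP-magnesium for phosphate and whose promoter held the cyclic AMP element above, had 7.88, 7.86, 7.80 and 7.72 with PMA, against 7.23, 7.05, 7.22 and 6.93 with vehicle (0.71 ± 0.08, adjusted p = 1.69e-06). Neither gene's groups overlapped. The other kept probe set gave 0.76 for SLC25A32 and 0.25 for SLC25A25. SLC25A51, the NAD carrier, was the third rise at 0.49 ± 0.11, which is uncertain because a near-identical copy, SLC25A52, may share its probes.

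On the lower side stood SLC25A12, the aspartate-glutamate carrier aralar of the malate-aspartate shuttle. It had 5.02, 4.84, 5.00 and 5.09 with PMA, against 5.96, 5.80, 5.86 and 5.83 with vehicle (−0.87 ± 0.07, adjusted p = 1.92e-08). The dicarboxylate carrier SLC25A10 at −0.65, the oxoglutarate carrier SLC25A11 at −0.61, the ornithine carrier SLC25A15 at −0.61 and the carnitine-acylcarnitine carrier SLC25A20 at −0.54 also passed. SLC25A11 belongs to the same shuttle as aralar.

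Sugar and monocarboxylate carriers had 2 rises and 8 falls among 26 kept of 44, with a median of −0.06 (0.02 with a common array median, where the counts were 4 and 5). In the SLC2 family of glucose transporters 0 of 9 kept members rose and 3 fell (2 after either rescaling). SLC2A1 and SLC2A3 are left out by the selection and are not in these counts. SLC2A6, a glucose transporter relative of lysosomes, had 6.04 to 6.47 with PMA, against 6.96 to 7.06 with vehicle (−0.83 ± 0.11, adjusted p = 5.26e-06), but its 3 kept probe sets ranged from −0.83 to 0.08. SLC16A9, a carrier of carnitine and creatine in the monocarboxylate family, had 5.44, 5.32, 5.30 and 5.44 with PMA, against 6.46, 6.36, 6.19 and 6.37 with vehicle (−0.97 ± 0.09, adjusted p = 1.20e-07). The larger of the rises was that of SLC45A4, of a family of proton-coupled carriers, with 5.79, 6.04, 5.93 and 5.95 with PMA, against 5.00, 4.85, 5.11 and 5.04 with vehicle (0.93 ± 0.08, adjusted p = 4.75e-08). The PMA and vehicle arrays of SLC16A9 and SLC45A4 did not overlap. The other kept probe set of SLC16A9 gave −0.36. The other rise, that of SLC16A4 at 0.31, was lost without vehicle replicate 2 or PMA replicate 2, without the 3 arrays that deviate together (DOC plus PMA replicate 2, PMA replicate 2 and DOC replicate 1), and with probe sets averaged.

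The remaining classes were smaller. Carriers of anions, bicarbonate, protons, calcium and chloride had 3 rises and 3 falls among 23 kept of 45, with 5 and 2 after cyclic loess and 6 and 2 with a common array median. The sulfate carrier SLC26A2, needed for sulfated cartilage matrix, had 7.38, 7.85, 7.42 and 7.47 with PMA, against 8.29, 8.38, 8.51 and 8.47 with vehicle (−0.88 ± 0.09, adjusted p = 3.59e-07). The sodium-bicarbonate cotransporter SLC4A7 rose by 0.48 ± 0.13 (adjusted p = 0.00659), and its other kept probe set gave 1.24. None of the 6 kept cation-chloride cotransporters of family SLC12 passed (1 rose after cyclic loess or without vehicle replicate 4, and 2 with a common array median). Carriers of lipids, choline and polyamines had 0 rises (1 without vehicle replicate 1) and 5 falls among 12 kept of 19, and the falls were 5 under either rescaling. They were led by SLC27A5, a fatty acid transport family member that activates bile acids, at −0.58 ± 0.14 (adjusted p = 0.00208), and held the choline carriers SLC44A1 at −0.32 and SLC44A2 at −0.28.

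Phosphate, sulfate and dicarboxylate carriers had 2 rises and 0 falls among 6 kept of 19 (4 and 0 with a common array median). SLC20A1, the sodium-phosphate cotransporter PiT-1, had 11.18, 11.43, 11.12 and 11.14 with PMA, against 10.81, 10.77, 10.79 and 10.78 with vehicle (0.43 ± 0.08, adjusted p = 0.000253). Carriers of nucleosides, vitamins and acetyl-CoA had 4 rises and 3 falls among 13 kept of 20, with the folate carrier SLC19A1 at 0.29 ± 0.10 (adjusted p = 0.0259) and the lysosomal carrier SLC46A3 at −0.56 ± 0.12. Single arrays decided these rises: they were 0 without vehicle replicate 2, 1 without PMA replicate 2 and 2 without vehicle replicate 1 or without the 3 arrays that deviate together. With a common array median there were 6 rises and 2 falls. The call of SLC19A1 was lost without vehicle replicate 2 or 4, PMA replicate 2 or those 3 arrays, and with its 4 probe sets averaged (0.15, from a range of 0.02 to 0.29). Organic ion and bile acid carriers had 1 rise and 3 falls among 11 kept of 29, led by SLC10A3 at 0.47 ± 0.09 and SLC10A4 at −0.64 ± 0.09. The 11 carriers of other families, all kept, had 1 rise (SLC66A2, 0.22 ± 0.07) and 3 falls, with 2 rises after cyclic loess and 3 with a common array median. The falls were led by the haem carrier SLC48A1 at −0.65 ± 0.11, whose 4 kept probe sets ranged from −0.65 to −0.08 and gave −0.29 when averaged. Among the 6 kept genes that are not carriers the antisense RNA SLC9A3-AS1 was at −0.74 ± 0.11, with its 2 probe sets at −0.74 and 0.05.

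**Figure D2:**
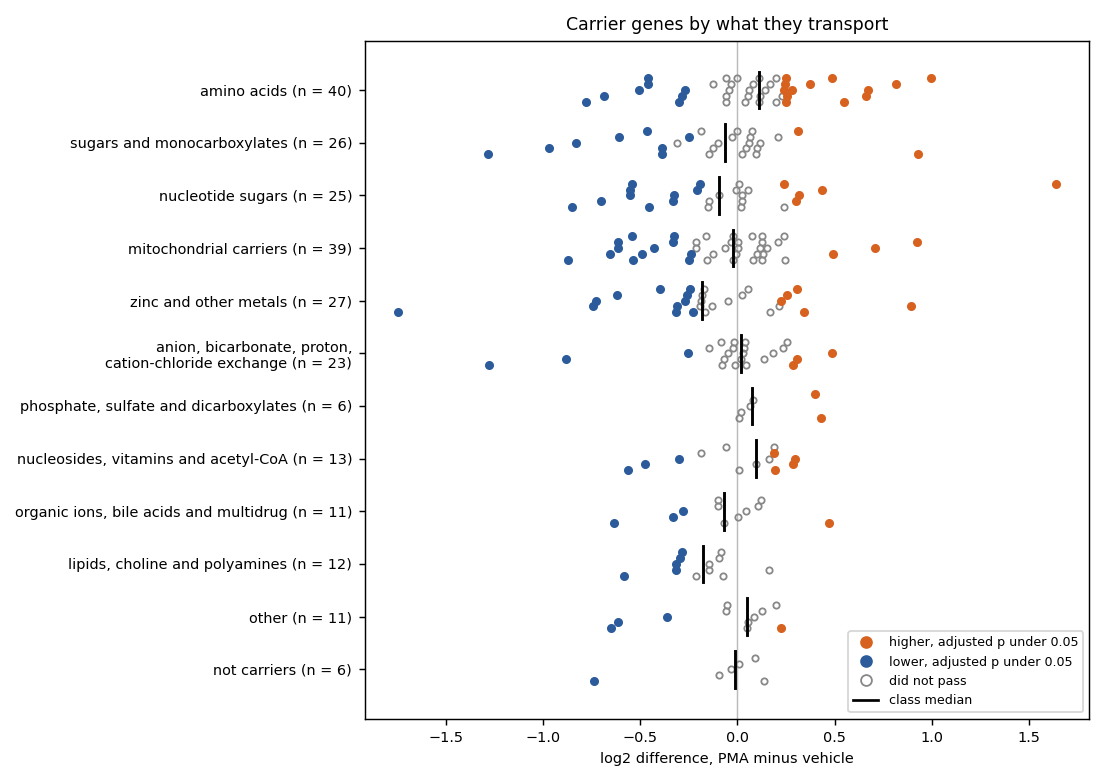
Log2 difference, PMA minus vehicle (x axis), of the 239 kept SLC genes, in rows by transport class. Classes were assigned by family number and not by the substrate of each gene. Each point is 1 gene, filled where the adjusted p is under 0.05 (orange higher, blue lower) and open where it is not; the black line is the class median, and heights within a row only separate points. Amino acid carriers have 13 filled points on the right and 8 on the left (median 0.11), lipid and choline carriers 0 and 5 (median −0.18), and metal carriers 5 and 11 (median −0.18, but 7 and 6 with a common array median), with SLC40A1 at the far left.

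The direction of the calls as a whole was sensitive to scaling. Of the members that passed for PMA against vehicle, 36.8% were higher. With cyclic loess scaling this share was 46.7% (49 rises, 56 falls). With a common array median over the genes tested it was 55.8% (63 rises, 50 falls). The median of all genes moved by less than 0.1 under either, to 0.00 and 0.05. Small changes of single carriers are therefore relative to the array, and 70 of the 106 calls (24 higher, 46 lower) held under each of the 24 alternatives that tested them. Among these alternatives the symbols as the platform gives them repeat the main fit. Leaving out a DOC or DOC plus PMA array leaves the difference between PMA and vehicle unchanged. Of the called members 57 had several kept probe sets of one sign, 38 had a single one and 11 had probe sets of both signs, SLC2A6, SLC30A6 and SLC9A3-AS1 among them.

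DOC plus PMA against DOC shares no array with PMA against vehicle and gave a second reading of the phorbol ester, in the presence of steroid. Of the 239 members 30 rose and 57 fell, and of all genes tested 42.6% passed, 15.7% higher and 26.9% lower. Of the members called, 79 were called in both comparisons, all 79 in the same direction (27 higher, 52 lower). They made up 74.5% of the calls for PMA against vehicle and 90.8% of those for DOC plus PMA against DOC. Across members the pair of differences correlated at r = 0.949 (239 genes, which are not independent replicates), and 104 of the 106 calls kept their sign.

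The named genes show how close the sizes were. SLC35G2 had 9.07, 9.04, 8.88 and 9.11 in DOC plus PMA cells, against 7.51, 7.24, 7.45 and 7.39 in DOC cells, a difference of 1.63. SLC40A1 had 4.05, 4.29, 4.39 and 4.21 in DOC plus PMA cells, against 6.07, 6.14, 5.69 and 5.93 in DOC cells, a difference of −1.72. SLC7A1 was 1.01 higher, SLC45A4 0.92, SLC25A32 0.93 and SLC41A2 0.90, and SLC16A14 was at −1.35 and SLC24A1 at −1.32. SLC7A5 and SLC7A2, the LAT1 light chain and CAT-2, were at 0.73 and −0.58. Each of these passed. SLC27A5 was the one of the larger falls that did not, at −0.29 (adjusted p = 0.104) with DOC plus PMA arrays of 5.18 to 5.68 overlapping DOC arrays of 5.39 to 5.92.

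**Figure D3:**
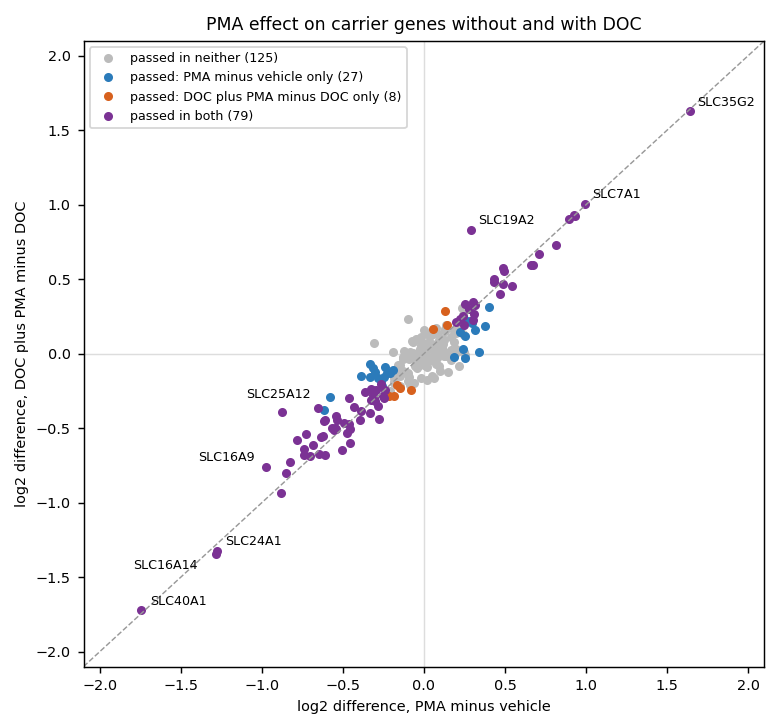
Log2 difference of each of the 239 kept SLC genes, PMA minus vehicle (x axis) against DOC plus PMA minus DOC (y axis); the 8 arrays behind one axis are not behind the other, and the dashed line marks equal differences. Colours give where a gene passed: 79 in both, 27 for PMA minus vehicle alone, 8 for DOC plus PMA minus DOC alone and 125 in neither. SLC35G2 and SLC40A1 lie at the ends of the line, with SLC19A2 and SLC25A12 above it.

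By class the counts of rises and falls in DOC plus PMA against DOC were 10 and 6 for amino acid carriers, 4 and 8 for metals, 5 and 8 for nucleotide sugars and 4 and 10 for mitochondrial carriers. They were 1 and 7 for sugars and monocarboxylates and 0 and 4 for lipids and choline. With a common array median the balance of the mitochondrial carriers turned to 10 rises and 7 falls, and sugars and monocarboxylates had 4 and 6 (3 and 6 after cyclic loess). Single arrays moved the rises: without DOC replicate 2 amino acid carriers had 6, without DOC replicate 2, 3 or 4 or DOC plus PMA replicate 2 nucleotide sugar carriers had 3, without DOC plus PMA replicate 1 or 2 metal carriers had 2, and without DOC plus PMA replicate 1 or DOC replicate 1 sugar and monocarboxylate carriers had 2. The SLC7 family again had 5 rises and 1 fall among 9, and SLC2 had 0 and 3 among 9. SLC6 had 2 rises (1 without DOC plus PMA replicate 4 or DOC replicate 1 or 2) and 0 falls among 11, and no test of the difference in counts was made. DOC plus PMA against vehicle, which shares arrays with the other comparisons, gave 39 rises and 53 falls among members, and 43.8% of all genes passed, 17.5% higher and 26.3% lower.

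DOC against vehicle addressed what the mineralocorticoid did on its own. None of the 239 members passed by limma, against 0.12% of all genes tested (15 genes, each higher), and 13 members had an unadjusted p under 0.05, beside 3.09% of all genes, 386 in number. The 3 of smallest p were SLC52A3, a riboflavin transporter, SLC43A1, the LAT3 amino acid carrier, and SLC7A8, the LAT2 light chain. SLC52A3 had 6.53, 6.53, 6.63 and 6.47 in DOC cells, against 6.15, 6.33, 6.43 and 6.39 in vehicle cells. The difference was 0.21 ± 0.07 (adjusted p = 0.999). SLC43A1 had 4.60, 4.72, 4.71 and 4.67 with DOC, against 4.44, 4.59, 4.33 and 4.55 with vehicle, a difference of 0.20 ± 0.07 (adjusted p = 0.999). SLC7A8 had 5.62, 5.39, 5.51 and 5.33 with DOC, against 5.14, 5.19, 5.14 and 5.33 with vehicle, a difference of 0.26 ± 0.10 (adjusted p = 0.999). The DOC arrays of these 3 genes lay above their vehicle arrays, by a narrow gap in SLC7A8. Of the members 2.09% had DOC and vehicle arrays that did not overlap, against 2.32% of all genes. The promoter of SLC7A8 held the AP-1 letters 134 bases before its start, and none of the 3 passed in DOC plus PMA against PMA.

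DOC plus PMA against PMA addressed what the mineralocorticoid added in the presence of the phorbol ester. One member passed, SLC19A2, against 0.384% of all genes tested (48 genes), and 6 members had an unadjusted p under 0.05, beside 4.35% of all genes, 544 in number. SLC19A2 encodes THTR-1, a high-affinity thiamine (vitamin B1) transporter whose loss in people causes thiamine-responsive megaloblastic anaemia. Its log2 signals were 8.24, 8.09, 7.87 and 8.21 in DOC plus PMA cells and 7.32, 7.43, 7.40 and 7.31 in PMA cells. They were 7.34, 7.25, 7.25 and 7.24 in DOC cells and 7.09, 6.88, 7.01 and 7.33 in vehicle cells. The 4 arrays with both agents lay above the other 12, and the DOC and vehicle arrays overlapped.

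The difference between DOC plus PMA and PMA was 0.74 ± 0.09 (adjusted p = 0.00019), which is 1.67-fold, and it passed under all 25 alternatives. These include the symbols as the platform gives them, which repeat the main fit. They also include omissions of vehicle or DOC arrays, which leave this difference unchanged. Between DOC and vehicle the difference was 0.19 ± 0.09 (adjusted p = 0.999). The DOC main effect, the mean of these differences without and with PMA, was 0.47 ± 0.06 (adjusted p = 0.000763), and SLC19A2 was the one member to pass there, where 0.432% of all genes did. The interaction, which tests whether the DOC difference itself changed with PMA, was 0.54 ± 0.13 with an adjusted p of 0.345. The larger DOC difference in the presence of PMA is therefore not established by its own test. PMA against vehicle gave 0.29 ± 0.09 (adjusted p = 0.0149), a call lost without vehicle replicate 2, and DOC plus PMA against vehicle gave 1.03 ± 0.09 (adjusted p = 6.22e-08). The 3 kept probe sets of the gene had the same sign for PMA against vehicle, 0.29 to 0.33. For DOC plus PMA against PMA they were not examined singly, though their average is among the alternatives. The promoter of SLC19A2 is printed because it is the one carrier that passed for the steroid.
SLC19A2 (chr1:169485921-169486220, minus strand, RefSeq, GRCh38.p14): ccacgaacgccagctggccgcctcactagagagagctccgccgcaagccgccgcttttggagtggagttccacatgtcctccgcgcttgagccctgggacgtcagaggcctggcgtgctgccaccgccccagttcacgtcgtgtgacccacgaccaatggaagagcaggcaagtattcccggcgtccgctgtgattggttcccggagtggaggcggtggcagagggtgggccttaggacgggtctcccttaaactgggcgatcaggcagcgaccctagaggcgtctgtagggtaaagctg
It held none of the searched letters in this window, the corticosteroid half-site TGTTCT included. Those letters stood in 8.63% of all promoters, in 1 of 30 of members that rose with PMA (SLC19A1) and in 5 of 58 of members that fell.

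**Figure D4:**
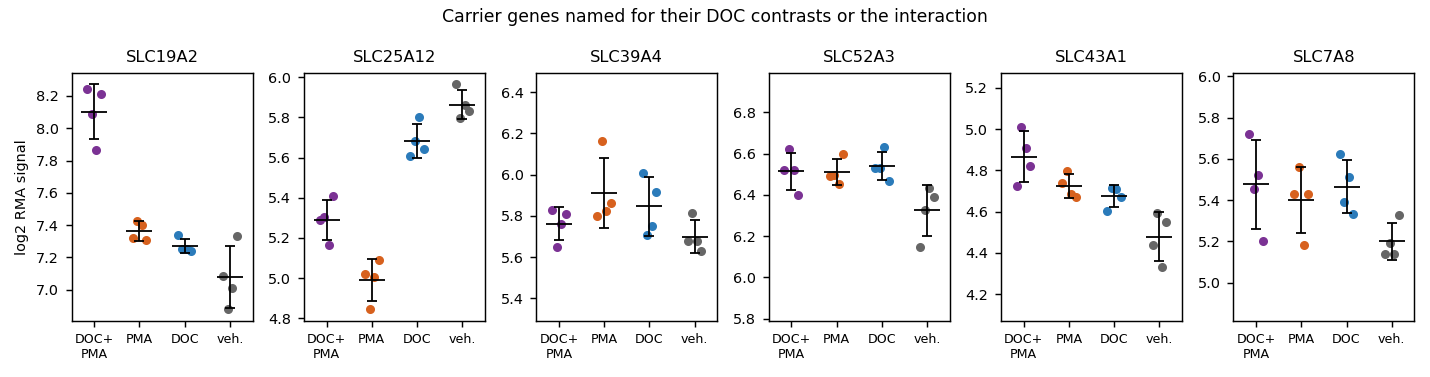
Log2 RMA signal (y axis, different in each panel and not starting at 0) of the 6 carrier genes named for a DOC comparison or the interaction, by treatment group (x axis). Each point is 1 array and each bar is the mean ± SD of 4 arrays. In SLC19A2 the DOC plus PMA arrays (7.87 to 8.24) lie above all others, and in the other 5 panels the groups that differ by DOC are close or overlap.

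No member passed the interaction, against 0.088% of all genes tested (11 genes), and 7 members had an unadjusted p under 0.05, beside 2.96% of all genes, 370 in number. The median SE of the interaction was 0.124, against 0.0879 for a difference of 2 groups, so that it was the less precise measure. The smallest p values beside that of SLC19A2 were those of SLC25A12 and SLC39A4. SLC25A12, aralar, was at 5.29, 5.30, 5.16 and 5.41 with DOC plus PMA and 5.02, 4.84, 5.00 and 5.09 with PMA. It was at 5.61, 5.68, 5.80 and 5.64 with DOC and 5.96, 5.80, 5.86 and 5.83 with vehicle. The DOC plus PMA arrays all lay above the PMA arrays, while the highest DOC array and the lowest vehicle array met at 5.80. The DOC difference was 0.30 with PMA (adjusted p = 0.102) and −0.18 without (adjusted p = 0.999), and the interaction was 0.48 ± 0.10 (adjusted p = 0.15), which did not pass.

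SLC39A4, the ZIP4 zinc importer of the gut, had an interaction of −0.30 ± 0.12 (adjusted p = 1.00). PMA replicate 2 was at 6.16 and the other 3 PMA arrays at 5.80 to 5.86, and without that array the interaction was −0.21. Its signals were 5.65 to 5.83 with DOC plus PMA, 5.71 to 6.01 with DOC and 5.63 to 5.81 with vehicle, so that the groups overlapped.

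**Figure D5:**
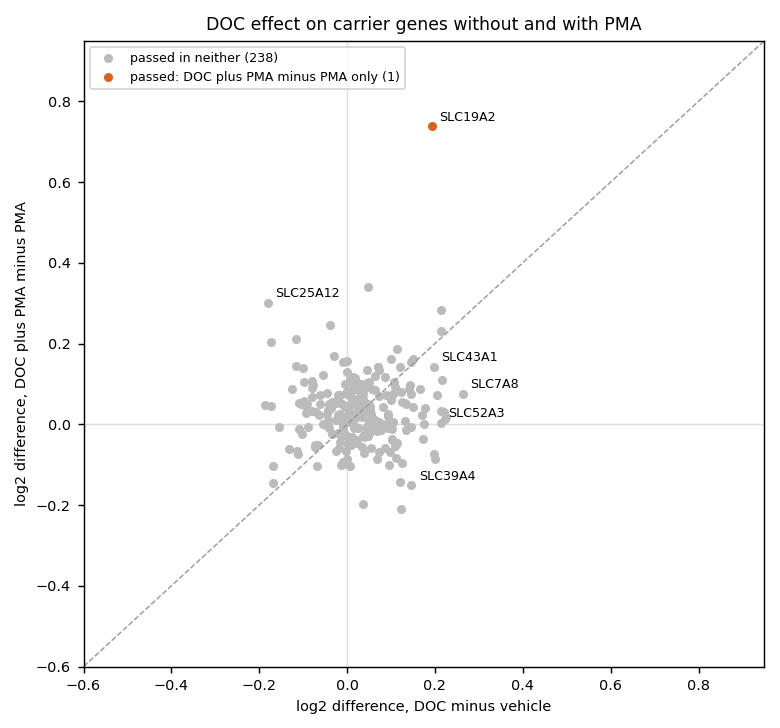
Log2 difference of each of the 239 kept SLC genes, DOC minus vehicle (x axis) against DOC plus PMA minus PMA (y axis), with a dashed line at equal differences. SLC19A2 (0.19 and 0.74) is the one gene that passed, for DOC plus PMA minus PMA, and the other 238 passed in neither and lie around 0.

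The partners and regulators of carriers were described as a list of 20 genes that are not SLC members, 19 of them kept. With PMA 4 rose and 6 fell, beside 17.7% and 29.3% of all genes tested. The kinase SGK1 rose by 1.43 ± 0.08, and its substrate NEDD4L, a ubiquitin ligase that removes transport proteins from the membrane, by 1.10 ± 0.08. TXNIP, an arrestin-like protein that draws glucose transporters inward, fell by 2.26 on the log2 scale. The mitochondrial pyruvate carrier subunits MPC1 and MPC2, which are outside the SLC names, were at −0.33 and −0.43, and both passed. SGK1 was also higher with DOC alone (0.93 ± 0.08, adjusted p = 5.61e-06) and with DOC plus PMA against PMA (0.96), and TXNIP was higher in the second of these (1.15).

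Other transport proteins gave a comparison outside the carriers. Of 42 ATP-binding cassette transporters 25 were kept, with 6 rises and 5 falls with PMA. Of 56 ion pump genes 39 were kept, with 10 rises and 11 falls. Among these, ABCB1, the multidrug efflux pump, rose by 0.97 and the plasma membrane calcium pump ATP2B1 by 0.58. None of either list passed for DOC against vehicle or for DOC plus PMA against PMA, where 0.12% and 0.384% of all genes tested did. The shares called with PMA, 11 of 25 and 21 of 39, stand beside 106 of 239 SLC members, non-carriers included. Of all genes tested 47% passed, so that each of these shares was near the background.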

How the data were processed

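RNA of 16 HEK293 cultures was labelled as biotin cRNA and hybridised to Affymetrix PrimeView arrays, per the labels' protocols. The authors deposited log2 signals. Per the submitters' processing notes these were made by RMA with Affymetrix Expression Console, with versions not given in the sources used here. Since RMA gives the probes of each array the same distribution, a shift shared by every transcript is not visible. The array medians of the probe set values still ranged from 4.91 to 4.96. The table held 49293 probe sets with values from 1.21 to 13.8, and 0 columns of other samples. Arrays have no read depth, and their number limits the precision (median SE 0.0879 for a difference of 2 groups).

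The platform annotation paired 44988 probe sets with 1 gene each. The brightest one per gene was tested if it reached the 40th array percentile on 4 or more arrays. Group means of the 16 arrays were fitted with lmFit and eBayes in limma 3.58.1 under R 4.3.3, without a replicate block, and p-values were adjusted by the Benjamini-Hochberg method over all 12495 genes (threshold 0.05, two-sided). Differences are log2 with SE. The labels call the arrays of a group biological replicates, and p-values rest on the spread between them. The fit was tested on simulated data in which 200 of 12495 genes changed, a far smaller share than the 47% called for PMA against vehicle. In that comparison it recovered 34% of log2 changes of 0.3, 76% of 0.5, 98% of 1 and 100% of 2. Of its 161 calls 7 were false.

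Members were grouped by family number into transport classes. The genes named are the 12 largest rises and 12 largest falls with PMA, members that passed a DOC comparison, the DOC main effect or the interaction (or the 3 of smallest p), the largest rise and fall of each class, and 12 kidney carriers. The members, lists and naming rule were chosen with earlier results of these data known, and no list was tested as a set. Replicate numbers were treated as a possible pairing of the PMA with the DOC plus PMA arrays, in alternative fits only. The deviations of their same-numbered arrays from the group means correlated at 0.352, 0.549, 0.367 and 0.157. For same-numbered arrays of other pairs of groups the range was −0.164 to 0.437. No values of arrays with different numbers were set beside these, and the labels do not say what a number shares. The pairing is therefore not established. Alternatives were no filter, a 60th percentile filter, averaged probe sets, cyclic loess, a common array median, the replicate number as a block, symbols as the platform gives them, leaving out 3 arrays that deviate together, and leaving out each array in turn. Counts of SLC families leave out the 9 genes that are not carriers.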

Additional observations from a re-analysis of the deposited data

Results flagged for a closer look

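In 152 pairs of a named carrier and a group of 4 arrays, 5 held 1 array far from the other 3, where chance gives about 1 in 20. SLC19A2, the thiamine transporter, was at 7.34 in DOC replicate 1, and the other DOC arrays were at 7.24 to 7.25. SLC39A11, a zinc carrier, was at 6.73 in DOC replicate 1, with the others at 6.29 to 6.36. SLC48A1, the haem carrier, was at 8.16 in the same array, with the others at 7.72 to 7.77. SLC25A25, the ATP-magnesium carrier, was at 7.60 in DOC plus PMA replicate 1, with the others at 7.79 to 7.81. SLC39A4, the zinc importer, was at 6.16 in PMA replicate 2, with the others at 5.80 to 5.86. DOC replicate 1 and PMA replicate 2 are among the 3 arrays that deviate together.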

How the results depend on the processing

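The number of carriers higher with PMA moved with a common array median, to 63 from 39 for PMA against vehicle and to 49 from 30 for DOC plus PMA against DOC. The falls were 50 and 44 there, and the cause was not tested. Leaving out each array in turn gave 30 to 41 rises and 57 to 69 falls for PMA against vehicle, 23 to 33 and 49 to 62 for DOC plus PMA against DOC, and 28 to 40 and 44 to 57 for DOC plus PMA against vehicle. DOC against vehicle and the interaction had 0 carriers and DOC plus PMA against PMA and the DOC main effect 1, under every alternative run. With the replicate number as a block the counts were 40 rises and 69 falls for PMA against vehicle and 32 and 59 for DOC plus PMA against DOC. The block over the 8 PMA and DOC plus PMA arrays kept SLC19A2 (adjusted p = 0.00765), and neither block moved a count of called carriers by over 1.5 times. Without the 3 arrays that deviate together there were 35 rises and 74 falls for PMA against vehicle. The values of named carriers include repeats of the main fit (symbols as the platform gives them). They also include omissions of arrays outside a comparison, which leave its difference unchanged. Of the 978 values 973 stayed on their side of the threshold and none reversed. The other 5 were SLC19A1 for PMA against vehicle, whose adjusted p reached 0.0938. The 4 arrays per group limit what could be seen of DOC changes, and not only of those near the SE. In the simulated data, for PMA against vehicle, 34% of log2 changes of 0.3 and 76% of those of 0.5 were recovered. Recovery of DOC changes was not simulated.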
